A study of Mus musculus with 12 samples.

Results

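The genes described here are 32 components and transcriptional targets of the p53 pathway: p53 itself (Trp53), its negative regulators, and targets that act in cell-cycle arrest, stress responses, cell death, DNA repair and metabolism. They were chosen by name, without cell-cycle inhibitors and Bcl2 family genes, and are 32 of the 38561 genes in the count table. Of these, 31 were abundant enough to be tested, among 15352 genes tested in all. The gene that was not is Gdf15. RNA was sequenced from pancreatic islets of 11-week-old male mice. Each library is from 1 mouse, and each of the 4 groups holds 3 mice: NOD_insHEL (NOD/LtJ background with the insHEL transgene), NOD (NOD/LtJ without it), B10_insHEL (C57BL/10SnSg background with insHEL) and B10 (C57BL/10SnSg without it). The transgene, Tg(ILK3mHEL), places membrane-bound hen egg lysozyme under an insulin promoter, which is active in beta cells. Mice of every group, controls included, were Rag-/- (allele Ragtm1Mom), carried the MHC k haplotype and had normal blood glucose. A Rag-deficient mouse has no mature T or B cells, so the comparisons are of islets without adaptive immune attack. Islets were a hand-picked pool per mouse (20 to 137 islets). Actinomycin D and α-amanitin, which block transcription, were in the isolation solutions of all 12 libraries.

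The p53 protein is a transcription factor that is kept scarce by the ubiquitin ligase Mdm2 and its partner Mdm4 and is stabilised when DNA is damaged or the cell is otherwise stressed. Much of its control is on the protein and not on its own transcript, and several of its targets, Mdm2, Ppm1d and Ccng1 among them, feed back on it. In beta cells, as in other long-lived cells, the pathway is known for its links to DNA damage, senescence and apoptosis. Several of its targets, Gadd45b and Gadd45g in particular, also respond to other signals.

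The promoters of 6 members are shown because the largest strain differences were in the Gadd45 family, because Ccng1 and Rps27l moved with the transgene, and because Mdm2 is the best known feedback target. Promoter windows are from RefSeq (GRCm38.p6), run from 250 bases before to 50 bases after an annotated start, and are written 5′ to 3′ on the gene's strand. Capitals mark matches to the p53 half-site consensus, the short element that p53 contacts, which was searched on both strands. The windows with a match are those of Gadd45a at chr6:67037358-67037657 (minus strand), Ccng1 at chr11:40755237-40755536 (minus), Mdm2 at chr10:117710709-117711008 (minus) and the downstream window of Rps27l at chr9:66946163-66946462 (plus).
Gadd45a: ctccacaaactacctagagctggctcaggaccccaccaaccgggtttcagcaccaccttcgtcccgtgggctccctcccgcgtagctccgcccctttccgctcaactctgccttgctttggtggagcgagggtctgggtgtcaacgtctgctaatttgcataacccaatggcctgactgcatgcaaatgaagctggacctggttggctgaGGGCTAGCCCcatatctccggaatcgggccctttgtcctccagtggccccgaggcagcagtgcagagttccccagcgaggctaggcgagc
Ccng1: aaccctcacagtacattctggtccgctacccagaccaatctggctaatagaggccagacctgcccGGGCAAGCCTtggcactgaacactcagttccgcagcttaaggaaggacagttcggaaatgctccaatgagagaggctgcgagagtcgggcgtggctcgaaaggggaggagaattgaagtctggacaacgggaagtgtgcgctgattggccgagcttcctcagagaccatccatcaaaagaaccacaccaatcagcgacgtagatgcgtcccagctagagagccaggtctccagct
Mdm2: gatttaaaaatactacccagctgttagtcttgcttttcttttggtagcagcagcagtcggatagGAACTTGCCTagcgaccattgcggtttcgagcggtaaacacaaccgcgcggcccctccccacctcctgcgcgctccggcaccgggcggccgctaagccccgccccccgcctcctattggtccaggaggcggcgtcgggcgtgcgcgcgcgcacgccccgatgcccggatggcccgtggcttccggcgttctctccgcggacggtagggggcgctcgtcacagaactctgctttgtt
Rps27l: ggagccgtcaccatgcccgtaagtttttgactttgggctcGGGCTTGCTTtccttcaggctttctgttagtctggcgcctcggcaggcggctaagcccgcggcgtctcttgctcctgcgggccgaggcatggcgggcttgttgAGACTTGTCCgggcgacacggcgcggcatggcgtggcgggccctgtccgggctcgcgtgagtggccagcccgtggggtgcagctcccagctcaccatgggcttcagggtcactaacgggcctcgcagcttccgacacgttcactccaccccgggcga
The windows of the other Gadd45 genes, Gadd45b at chr10:80929841-80930140 (plus strand) and Gadd45g at chr13:51846425-51846724 (plus), held no match.
Gadd45b: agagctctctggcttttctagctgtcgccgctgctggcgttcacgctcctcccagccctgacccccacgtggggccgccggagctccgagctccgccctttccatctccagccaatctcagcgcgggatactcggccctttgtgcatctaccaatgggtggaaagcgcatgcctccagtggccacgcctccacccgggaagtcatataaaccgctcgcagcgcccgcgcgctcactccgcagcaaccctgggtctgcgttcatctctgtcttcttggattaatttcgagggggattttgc
Gadd45g: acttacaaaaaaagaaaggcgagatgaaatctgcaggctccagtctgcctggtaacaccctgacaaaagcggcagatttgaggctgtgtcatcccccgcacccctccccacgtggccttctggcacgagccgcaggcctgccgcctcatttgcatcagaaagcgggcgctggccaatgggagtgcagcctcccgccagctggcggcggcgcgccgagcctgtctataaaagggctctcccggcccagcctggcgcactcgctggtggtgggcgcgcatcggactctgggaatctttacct
Across the members, 25 of 32 had a promoter entry and 10 of the 25 had a match in at least 1 window. Counted by window this was 11 of 31 (35.5%), against 8.36% of all 32851 promoter windows in the table. The windows of Aen overlap and hold the same match, which was counted in each. The members were chosen by name as p53 pathway genes and targets, so this contrast is not an independent result. The match in Gadd45a began 40 bases before the annotated start, that in Ccng1 185 bases before it and that in Mdm2 186 bases before it. The downstream window of Rps27l had matches that began 210 and 107 bases before the annotated start that this window spans. That window lies inside the gene as annotated in GENCODE vM21 (chr9:66946086-66949516). The other window of Rps27l had none. Windows of Trp53, Ppm1d, Ei24, Aen, Sesn1 and Polk, not printed here, also held a match. Of the members with a match, Gadd45a was called higher and Ccng1 and Polk lower in the averaged strain difference below, and the others were not called. A match is a description of the letters in a window and not a measurement of p53 binding. Sequence outside the windows was not searched. The coordinates of genes below are from GENCODE vM21 on the same build.

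Library totals ranged from 2212062 counts (NOD_insHEL replicate 3) to 21138456 counts (B10 replicate 2), so that 0 counts in a library (a floor of 3 counts) allows a level of up to 0.142 to 1.36 CPM. CPM are counts per library size, with edgeR's TMM factors applied. Summed endocrine markers held 290000 to 323000 CPM in NOD_insHEL, 270000 to 291000 in NOD, 234000 to 309000 in B10_insHEL and 214000 to 247000 in B10, with none of the 12 markers at 0. Summed lymphocyte markers (12 genes) held 11.6 to 27.2 CPM in NOD_insHEL, 15.2 to 17.9 in NOD, 6.5 to 13.1 in B10_insHEL and 12.2 to 14 in B10, with 5 to 8 of them at 0 in a library and the defining markers Cd3e, Cd3d and Ms4a1 at 0 in all 12. Summed acinar markers differed most between groups, at 153 to 204 CPM in NOD_insHEL, 218 to 368 in NOD, 193 to 2670 in B10_insHEL (highest in replicate 2) and 3770 to 4750 in B10, with 1 to 5 of the 27 markers at 0 and the amylase gene Amy2a5 at 0 in all 12 libraries. Endothelial markers were highest in NOD (1430 to 2040 CPM, against 1050 to 1300 across the other groups), and stellate markers reached 1090 to 1610 CPM on the NOD background against 772 to 1140 CPM on the B10 background. In the sample descriptions the 3 B10 libraries have a run of numbers of their own, apart from the numbers 1 to 29 of the remaining 9. Number and group cannot be told apart in comparisons that use B10, whereas NOD_insHEL against B10_insHEL and NOD_insHEL against NOD lie within the numbers 1 to 29. Since these are bulk samples, fewer cells of a type and less RNA per cell cannot be told apart.

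The members spanned a wide range of abundance. Per kb of exon, Rps27l, a p53-induced ribosomal protein paralog, averaged 44.1 CPM per kb over the 12 libraries, and Ccng1 (cyclin G1, which recruits a phosphatase to Mdm2) averaged 39.1 CPM per kb. The next levels per length were those of Ei24, an endoplasmic reticulum protein (23.5 CPM per kb), Gadd45g (20.1), Mdm2 (15.6) and Trp53inp1, a p53 cofactor (14.1). Trp53 stood at rank 12 with 5.91 CPM per kb. The lowest levels among the tested members were those of 2 receptor genes, Tnfrsf10b with 0.596 CPM per kb and Eda2r with 0.356 CPM per kb. The death receptor gene Fas stood at 2.22 CPM per kb. Gdf15, which was not tested, was lower still (0.0886 CPM per kb). Rps27l shares sequence with Rps27 and with processed copies, so that its counts are uncertain.

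**Figure D1:**
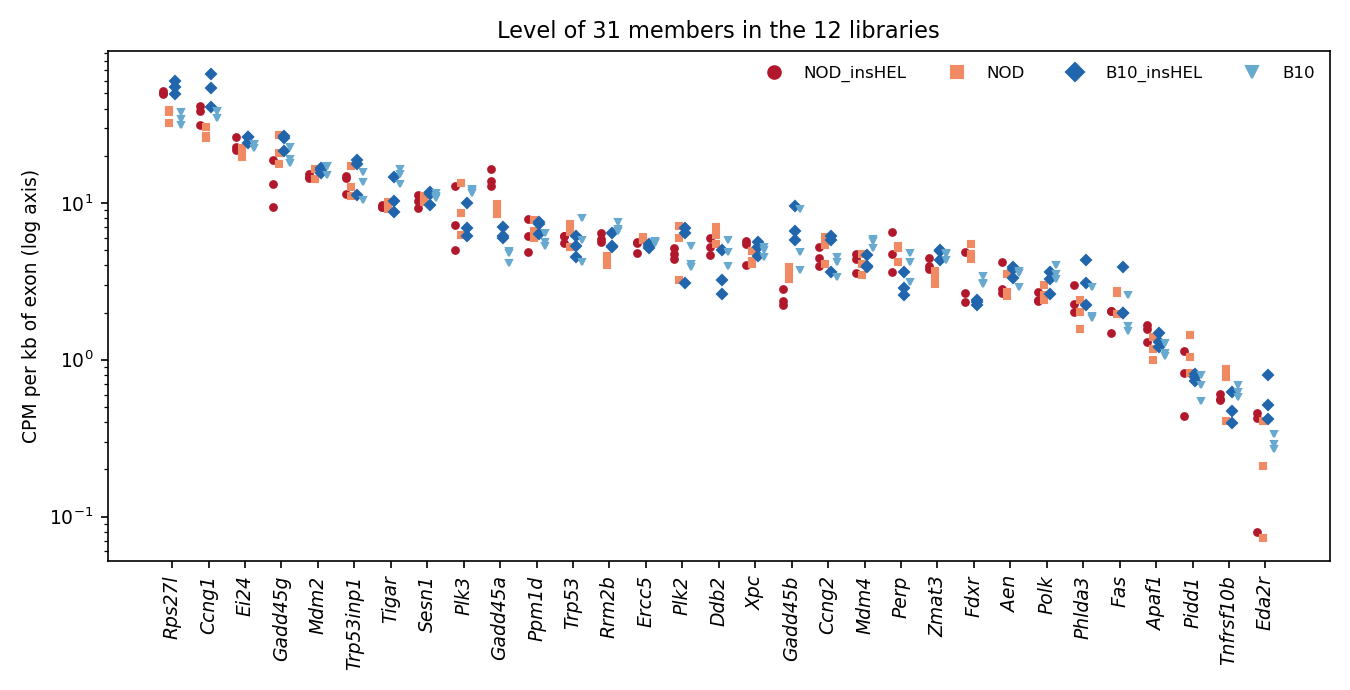
Level of the 31 tested members, in TMM-scaled CPM per kb of exon on a log axis, with 1 point per library (circles NOD_insHEL, squares NOD, diamonds B10_insHEL, triangles B10). Members are ordered by mean level, from Rps27l at 44.1 to Eda2r at 0.356 CPM per kb, and the 4 groups separate most clearly for Gadd45a.

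Gdf15, a secreted stress cytokine, had 0 to 11 counts per library and was left out of the tests. Pooled over the 6 libraries of a background, it had 3 counts on the NOD background and 25 on the B10 background. The ratio of pooled CPM was 0.191, with an exact 95% interval of 0.037 to 0.627 that covers counting error only.

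The first question was whether these genes differ between NOD and B10 islets. The difference averaged over insHEL (6 libraries against 6) is given beside the difference within transgenic islets and within non-transgenic islets. Gadd45a was higher on the NOD background by 2.11-fold and Gadd45b lower, at 0.451 of the B10 background. These were the only members whose averaged difference was at least 2-fold. Trp53, Mdm2, Ppm1d and the receptor genes Fas, Tnfrsf10b and Eda2r did not pass the test. In edgeR's quasi-likelihood test with Benjamini-Hochberg adjustment over all genes (threshold 0.05), 11 of 31 members (35.5%) were called, 4 higher and 7 lower on the NOD background. Of all genes tested, 33.3% were called (15.7% higher and 17.6% lower), so that the share among the members was near the background. The median log2 difference of the members was -0.09, beside 0.01 over all genes, and the median size was 0.18, beside 0.24. Within transgenic islets 5 of 31 members were called (2 higher and 3 lower), against 12.1% of all genes (5.55% higher and 6.5% lower), and 3 were called without NOD_insHEL replicate 1. Between the non-transgenic groups 8 of 31 were called (2 higher and 6 lower), against 28.4% of all genes (13.5% higher and 14.9% lower), and 4 were called without NOD replicate 3. Libraries of the 2 sides did not overlap for 4 of 31 members within transgenic islets, beside 27% of all genes. Between NOD and B10 this held for 10 of 31 members, beside 47.5% of all genes. When a score of acinar markers was added as a covariate, 3 of the 11 averaged calls kept their side of the threshold. These were Gadd45a, Perp and Tigar, and 3 members were called in all. The share of all genes called with this covariate is not given here, so the fall cannot be read as particular to the members. The score was 5.72 to 6.05 in B10, 5.3 in B10_insHEL replicate 2 and 1.28 to 2.91 in the remaining libraries. Beside the group means its slope rests mainly on B10_insHEL replicate 2. The adjusted values given here therefore cannot separate acinar content from what is particular to that library.

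**Figure D2:**
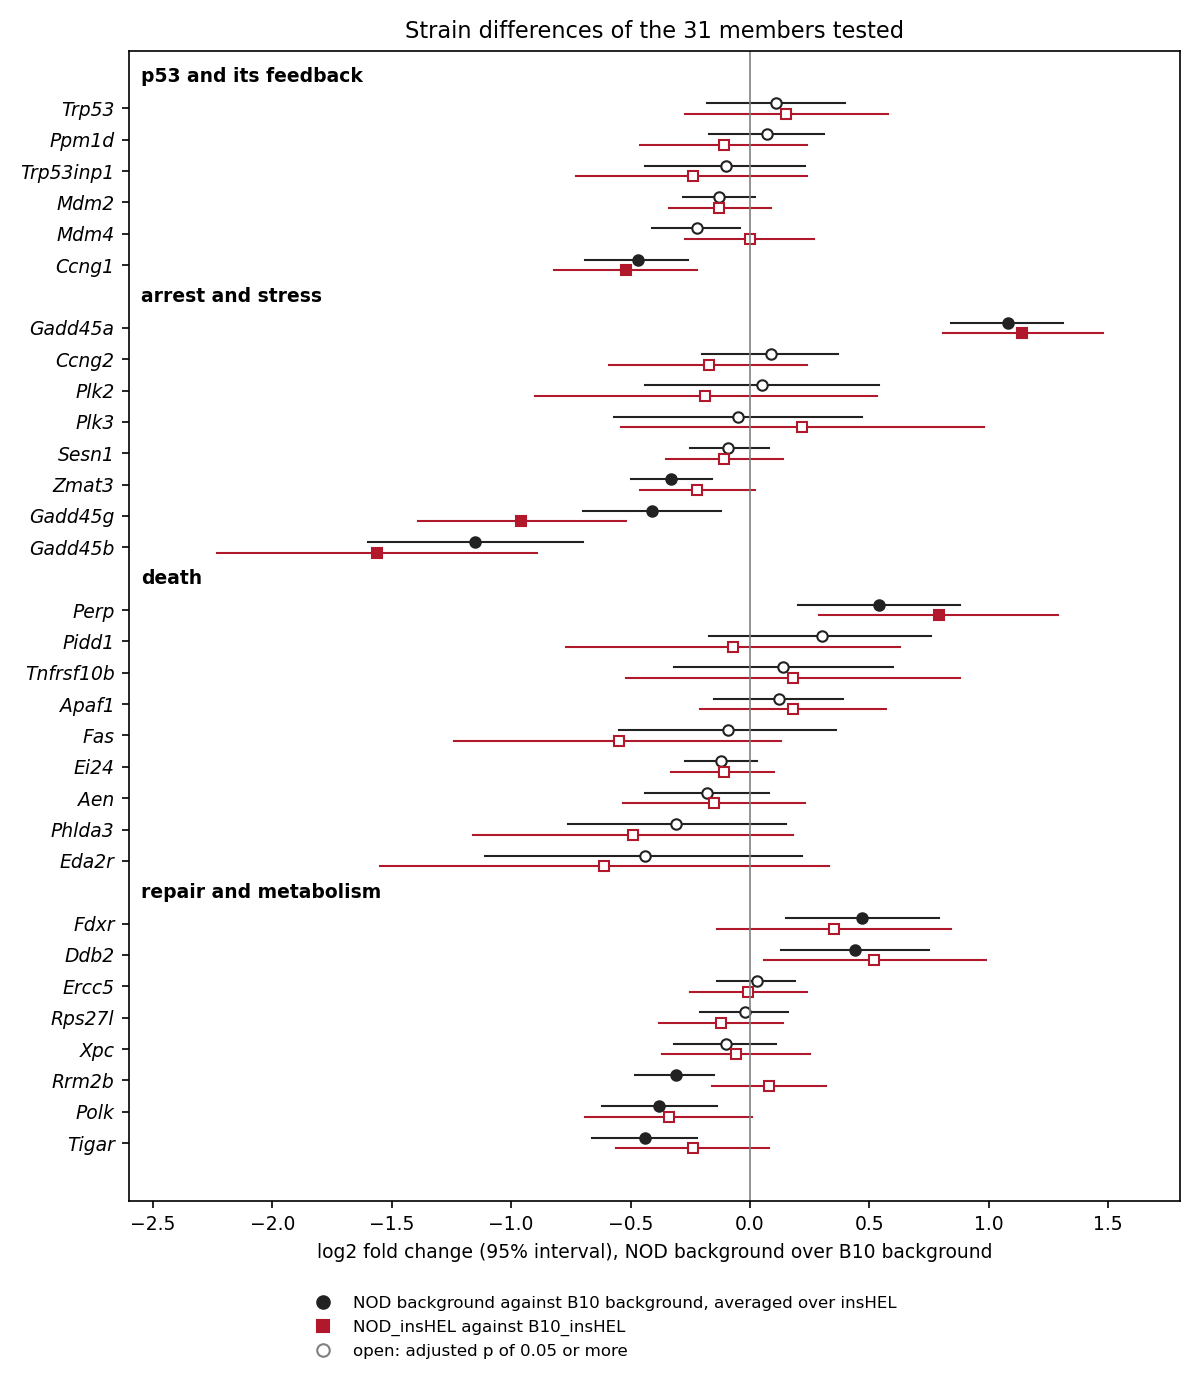
Log2 fold change (x axis) of NOD background over B10 background for the 31 tested members, grouped by role, with 95% intervals as lines. Circles are the difference averaged over insHEL and squares NOD_insHEL against B10_insHEL, filled where the adjusted p was under 0.05. Gadd45a lies at 1.08 and Gadd45b at -1.15, while most other members lie within 0.5 of 0.

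Among p53 and its feedback genes, 1 of 6 was called in the averaged difference, beside 33.3% of all genes. Trp53 (chr11:69580359-69591873, plus strand) had 24.8, 22.6 and 24.9 CPM in NOD_insHEL and 21.1, 26.2 and 29.7 CPM in NOD, against 21.6, 24.8 and 18.3 CPM in B10_insHEL and 23.4, 32.5 and 17 CPM in B10. The 4 groups overlapped, and the averaged log2 difference was 0.11 (95% interval -0.18 to 0.40, adjusted p = 0.584, edgeR). Mdm2, the ubiquitin ligase that degrades p53, had 74.5, 78.0 and 73.2 CPM in NOD_insHEL and 83.8, 72.5 and 72.7 CPM in NOD, against 78.9, 83.1 and 84.7 CPM in B10_insHEL and 76.5, 87.3 and 86.8 CPM in B10. Its averaged log2 difference of -0.13 had an interval of -0.28 to 0.02 (adjusted p = 0.189, edgeR), which leaves no room for a 2-fold difference in either direction. Ppm1d, the phosphatase that dephosphorylates p53, and Trp53inp1 had averaged log2 differences of 0.07 and -0.10 and were not called.

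Ccng1 (chr11:40748552-40755311, minus strand) was the called member of that group. It had 135, 147 and 111 CPM in NOD_insHEL and 107, 94.6 and 90.4 CPM in NOD, against 144, 233 and 190 CPM in B10_insHEL and 136, 121 and 136 CPM in B10. Every NOD library lay below every B10 library, whereas the transgenic groups overlapped. The averaged log2 difference was -0.47 (SE 0.10, adjusted p = 0.00125, edgeR), with -0.52 (adjusted p = 0.0205) within transgenic islets and -0.43 (adjusted p = 0.0300) between NOD and B10. After adjustment for the acinar score the averaged value was -0.25 (adjusted p = 0.245). The transgenic value was -0.34 (adjusted p = 0.113) without B10_insHEL replicate 2, -0.54 (0.0573) without NOD_insHEL replicate 1 and -0.43 (0.0999) without NOD_insHEL replicate 3. The non-transgenic value was -0.09 (adjusted p = 0.837) with the acinar covariate, and it missed the threshold without NOD replicate 2 or 3 or B10 replicate 1 or 3 (-0.42 to -0.38, adjusted p 0.0821 to 0.117).

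Mdm4, the Mdm2 partner that blocks p53 activity, ranged from 53.1 to 70.0 CPM in NOD_insHEL and from 51.7 to 69.7 CPM in NOD, against 58.0 to 69.0 CPM in B10_insHEL and 76.6 to 87.3 CPM in B10. The B10 group stood above the other 3 without overlap. NOD was lower than B10 by a log2 difference of -0.45 (SE 0.12, adjusted p = 0.0111, edgeR), while the difference within transgenic islets was 0.00 (95% interval -0.27 to 0.27) and the averaged value of -0.22 missed the threshold (adjusted p = 0.0606). Without NOD replicate 3, the difference between NOD and B10 was -0.35 (adjusted p = 0.0769). After adjustment for the acinar score it was -0.26 (adjusted p = 0.470). It also missed the threshold with the islet number covariate.

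The Gadd45 family, small stress proteins that bind cell-cycle and stress kinases, did not move as 1 unit. Summed immediate early and dissociation stress markers (26 genes) held 578 to 706 CPM in NOD_insHEL and 521 to 780 CPM in NOD, against 545 to 596 CPM in B10_insHEL and 467 to 521 CPM in B10, with 0 to 3 at 0 in a library. Of the 24 tested, 7 were higher and 1 lower on the NOD background in the averaged difference (median log2 difference 0.34). Of all genes, 15.7% were higher and 17.6% lower. The part of these markers in the Gadd45 results was not tested. Gadd45a (chr6:67035096-67037457, minus strand), the family member most directly tied to p53, had 24.5, 22.6 and 29.1 CPM in NOD_insHEL and 17.3, 16.4 and 15.0 CPM in NOD. It had 12.4, 10.9 and 10.6 CPM in B10_insHEL and 8.66, 7.25 and 8.45 CPM in B10. All 6 libraries of the NOD background lay above all 6 of the B10 background, and the 4 groups did not overlap one another. Gadd45a was the only one of the 31 tested members whose backgrounds did not overlap in the averaged comparison, beside 11.3% of all genes. The log2 difference was 1.08 averaged over insHEL (SE 0.11, adjusted p = 2.9e-07, edgeR), 1.14 within transgenic islets (SE 0.16, adjusted p = 4.31e-05) and 1.01 between the non-transgenic groups (SE 0.16, adjusted p = 8.12e-05). After adjustment for the acinar score it was 1.05 (adjusted p = 0.000226). An antisense transcript, E230016M11Rik, overlaps 337 bases of its exons on the other strand. It had 9 to 79 counts per library and an averaged log2 difference of -0.38 that was not called (adjusted p = 0.440).

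Gadd45b (chr10:80930073-80932204, plus strand), which is also induced by NF-kappaB and TGF-beta signalling, ran the other way. It had 3.55, 4.49 and 3.76 CPM in NOD_insHEL and 6.19, 5.16 and 5.76 CPM in NOD, against 10.5, 15.1 and 9.18 CPM in B10_insHEL and 7.72, 14.6 and 5.93 CPM in B10. All NOD_insHEL libraries lay below all B10_insHEL libraries, while NOD and B10 overlapped at 1 library each. The averaged log2 difference was -1.15 (SE 0.21, adjusted p = 0.00038, edgeR) and the transgenic one -1.56 (SE 0.32, adjusted p = 0.00261). Between the non-transgenic groups the value was -0.74 and missed the threshold (adjusted p = 0.0550). The averaged value after adjustment for the acinar score was -0.87 (adjusted p = 0.0576), and the transgenic one was -1.40 (adjusted p = 0.00817). Without B10_insHEL replicate 2, the transgenic library with the highest acinar markers, it was -1.32 (adjusted p = 0.0119).

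Gadd45g (chr13:51846678-51848468, plus strand), the family member induced by cytokines in several tissues, had 11.0, 15.4 and 22.1 CPM in NOD_insHEL and 31.9, 20.7 and 24.5 CPM in NOD, against 25.1, 31.3 and 30.5 CPM in B10_insHEL and 21.1, 26.5 and 22.6 CPM in B10. The NOD_insHEL group lay below B10_insHEL without overlap, and NOD overlapped B10. The transgenic difference was called (log2 -0.96, SE 0.21, adjusted p = 0.00412, edgeR) and held without each of the 6 libraries in turn (-1.15 to -0.70). Between the non-transgenic groups the value was 0.13 (95% interval -0.25 to 0.52). The averaged value of -0.41 (adjusted p = 0.0293) missed the threshold when any of 7 libraries was left out: NOD_insHEL replicate 1 or 2, NOD replicate 2 or 3, B10_insHEL replicate 2 or 3, or B10 replicate 2 (-0.43 to -0.28, adjusted p 0.0523 to 0.125). The averaged call was also lost with the islet number covariate and with the acinar covariate.

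**Figure D3:**
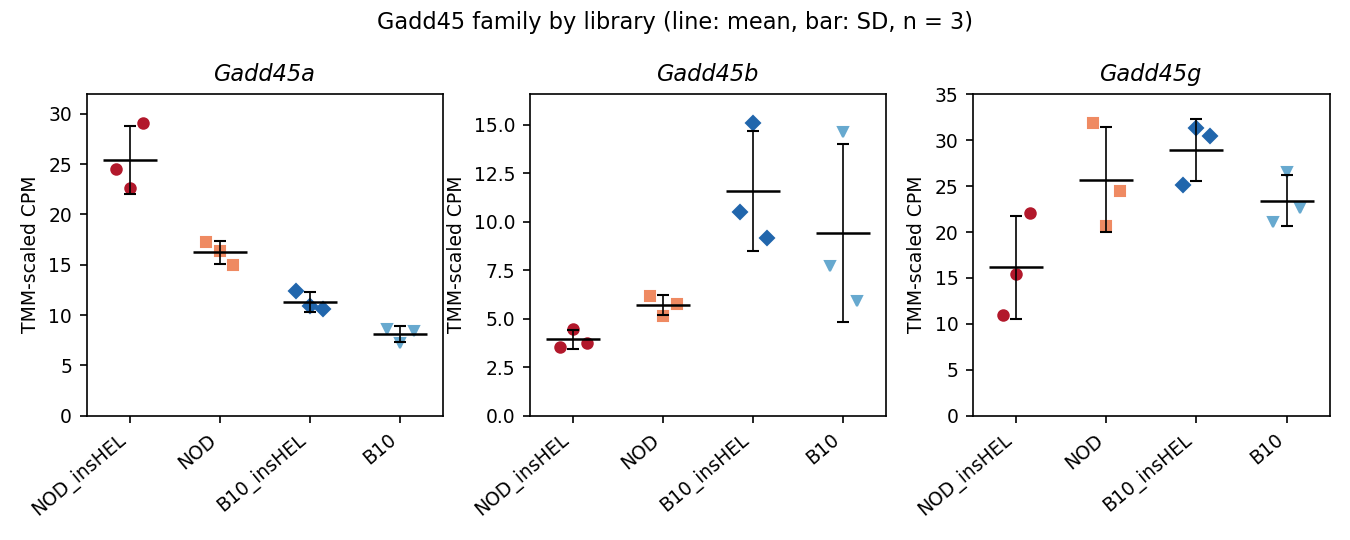
Gadd45a, Gadd45b and Gadd45g in TMM-scaled CPM (y axis) by group, with 1 point per library, the mean as a line and the SD as a bar (n = 3). Gadd45a is higher on the NOD background in all libraries, Gadd45b is lowest in NOD_insHEL, and Gadd45g is lowest in NOD_insHEL with a mean of 16.2 CPM against 25.7 CPM in NOD.

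Of the other arrest and stress genes, 1 was called in the averaged difference, where 33.3% of all genes were called. Zmat3, a p53-induced RNA-binding protein, ranged from 43.2 to 50.8 CPM in NOD_insHEL and from 35.0 to 42.4 CPM in NOD, against 49.4 to 57.2 CPM in B10_insHEL and 49.3 to 54.6 CPM in B10. NOD lay below B10 without overlap. The averaged log2 difference was -0.33 (SE 0.08, adjusted p = 0.00323, edgeR), the transgenic one -0.22 (adjusted p = 0.245) and the non-transgenic one -0.45 (adjusted p = 0.00544). After adjustment for the acinar score the averaged value was -0.27 (adjusted p = 0.151). The call between NOD and B10 was lost with the islet number covariate and with the acinar covariate (highest adjusted p 0.255, edgeR). Ccng2 (the atypical cyclin G2), the polo-like kinase genes Plk2 and Plk3, and Sesn1, a sestrin that restrains mTORC1, had averaged log2 differences of 0.09, 0.05, -0.05 and -0.09 and were not called. The intervals of Plk2 (-0.44 to 0.54) and Plk3 (-0.57 to 0.47) were wide.

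Among the 9 cell death genes, Perp was the only one called for strain, beside 33.3% of all genes in the averaged difference. Perp, a tetraspan membrane protein of p53-dependent apoptosis and of desmosomes, had 12.7, 9.23 and 7.04 CPM in NOD_insHEL and 10.1, 10.3 and 8.21 CPM in NOD, against 5.59, 7.05 and 5.05 CPM in B10_insHEL and 8.25, 6.08 and 9.34 CPM in B10. The backgrounds overlapped, the lowest NOD_insHEL library being at the level of the highest B10_insHEL library. The averaged log2 difference was 0.54 (SE 0.16, adjusted p = 0.0144, edgeR) and the transgenic one 0.79 (SE 0.24, adjusted p = 0.0354). Between NOD and B10 the value was 0.29 (95% interval -0.16 to 0.75) and was not called (adjusted p = 0.335). The averaged value was 0.40 (adjusted p = 0.0905) without NOD_insHEL replicate 1 and 0.44 (adjusted p = 0.0558) without B10 replicate 2. The transgenic value missed the threshold when NOD_insHEL replicate 1 or 2 or B10_insHEL replicate 1 or 3 was left out (0.51 to 0.86, adjusted p 0.0562 to 0.279). The other 8 had averaged log2 differences from -0.44 to 0.30. The receptor genes Fas (-0.09, 95% interval -0.55 to 0.36), Tnfrsf10b (0.14, -0.32 to 0.60) and Eda2r (-0.44, -1.11 to 0.22) were expressed at low levels. Eda2r had 0.432 to 2.68 CPM on the NOD background against 1.58 to 4.70 CPM on the B10 background. Apaf1, the apoptosome scaffold (0.12), Pidd1, the caspase-2 platform (0.30), Aen, a nuclease (-0.18), Phlda3, an inhibitor of Akt (-0.31), and Ei24 (-0.12) were not called either.

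Of the 8 repair and metabolism genes, 5 were called in the averaged difference (2 higher and 3 lower), beside 33.3% of all genes tested. Tigar (chr6:127085116-127109557, minus strand), a fructose bisphosphatase that lowers glycolytic flux, had 35.5, 34.3 and 34.3 CPM in NOD_insHEL and 33.6, 36.8 and 36.0 CPM in NOD, against 53.7, 32 and 37.9 CPM in B10_insHEL and 48.7, 56.0 and 60.2 CPM in B10. All 6 libraries of the NOD background were close to one another, and the B10 background spread from 32 to 60.2 CPM. The averaged log2 difference was -0.44 (SE 0.11, adjusted p = 0.00315, edgeR), and it was -0.67 (adjusted p = 0.00281) with the acinar score and -0.29 (adjusted p = 0.0778) with the number of picked islets as a covariate. The difference lay mainly between NOD and B10 (-0.63, adjusted p = 0.00287), the transgenic value being -0.24 (adjusted p = 0.341).

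Rrm2b (chr15:37923952-37961318, minus strand), the p53-inducible ribonucleotide reductase subunit that supplies nucleotides for repair, had 53.4, 58.6 and 51.2 CPM in NOD_insHEL and 42.1, 36.8 and 38.5 CPM in NOD, against 48.9, 58.5 and 47.7 CPM in B10_insHEL and 60.3, 62.1 and 69.0 CPM in B10. NOD was the lowest group and B10 the highest, and the transgenic groups overlapped. NOD was lower than B10 by a log2 difference of -0.71 (SE 0.11, adjusted p = 0.000103, edgeR), which was -0.50 (adjusted p = 0.0786) after adjustment for the acinar score. Within transgenic islets the value was 0.08 (95% interval -0.16 to 0.32). The averaged value was -0.31 (adjusted p = 0.00504), and -0.17 (adjusted p = 0.359) with the acinar covariate. Rrm2b shares 734 exonic bases with Gm49085 on the other strand. No counts were found for Gm49085, so its part in the Rrm2b counts was not tested.

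Fdxr, the ferredoxin reductase of mitochondria, was higher on the NOD background in the averaged difference. It had 6.52, 7.52 and 13.6 CPM in NOD_insHEL and 12.2, 13.3 and 15.4 CPM in NOD, against 6.23, 6.70 and 6.60 CPM in B10_insHEL and 8.54, 9.60 and 8.66 CPM in B10. All NOD libraries lay above all B10 libraries, while in NOD_insHEL replicate 3, the shallowest library, stood apart from the others. The averaged log2 difference was 0.47 (SE 0.15, adjusted p = 0.0217, edgeR), 0.35 (adjusted p = 0.0539) without NOD_insHEL replicate 3 and 0.43 (adjusted p = 0.0556) without NOD replicate 3. The difference between NOD and B10 was 0.60 (adjusted p = 0.0293). It missed the threshold when any of 5 libraries was left out, NOD replicate 2 or 3 or any B10 replicate (0.51 to 0.64, adjusted p 0.0645 to 0.120). Both the averaged call and this call were also lost with the islet number covariate and with the acinar covariate. Within transgenic islets the value was 0.35 (95% interval -0.14 to 0.84, adjusted p = 0.370).

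Polk, a translesion DNA polymerase, ranged from 13.1 to 15.0 CPM in NOD_insHEL and from 13.5 to 16.6 CPM in NOD, against 14.6 to 20.1 CPM in B10_insHEL and 18.0 to 22.3 CPM in B10, with an averaged log2 difference of -0.38 (adjusted p = 0.0138, edgeR). After adjustment for the acinar score it was -0.21 (adjusted p = 0.454). Between NOD and B10 it was -0.43 (adjusted p = 0.0456) and missed the threshold without NOD replicate 1 or 3 or B10 replicate 2 or 3 (-0.46 to -0.36, adjusted p 0.0789 to 0.157). It also missed the threshold with the islet number covariate and with the acinar covariate. Within transgenic islets it was -0.34 (adjusted p = 0.206). Ddb2, a damage sensor of nucleotide excision repair, ranged from 12.8 to 16.4 CPM in NOD_insHEL and from 15.0 to 19.2 CPM in NOD, against 7.22 to 13.6 CPM in B10_insHEL and 10.8 to 15.9 CPM in B10. Its averaged log2 difference of 0.44 (adjusted p = 0.0286, edgeR) missed the threshold when any of 7 libraries was left out: NOD_insHEL replicate 1 or 3, NOD replicate 2 or 3, B10_insHEL replicate 2 or 3, or B10 replicate 2 (0.35 to 0.44, adjusted p 0.0511 to 0.0908). The value for Ddb2 was 0.52 (adjusted p = 0.138) within transgenic islets and 0.36 (adjusted p = 0.191) between NOD and B10, neither of which was called. Ddb2 shares 652 exonic bases with Acp2 on the other strand, which had a log2 difference of -0.13 (adjusted p = 0.166). Whether counting used the strand is not given in the sources used here. The other excision repair genes were not called, Xpc with -0.10 (95% interval -0.32 to 0.11) and Ercc5 with 0.03 (-0.14 to 0.19), and neither was Rps27l with -0.02 (-0.21 to 0.16).

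**Figure D4:**
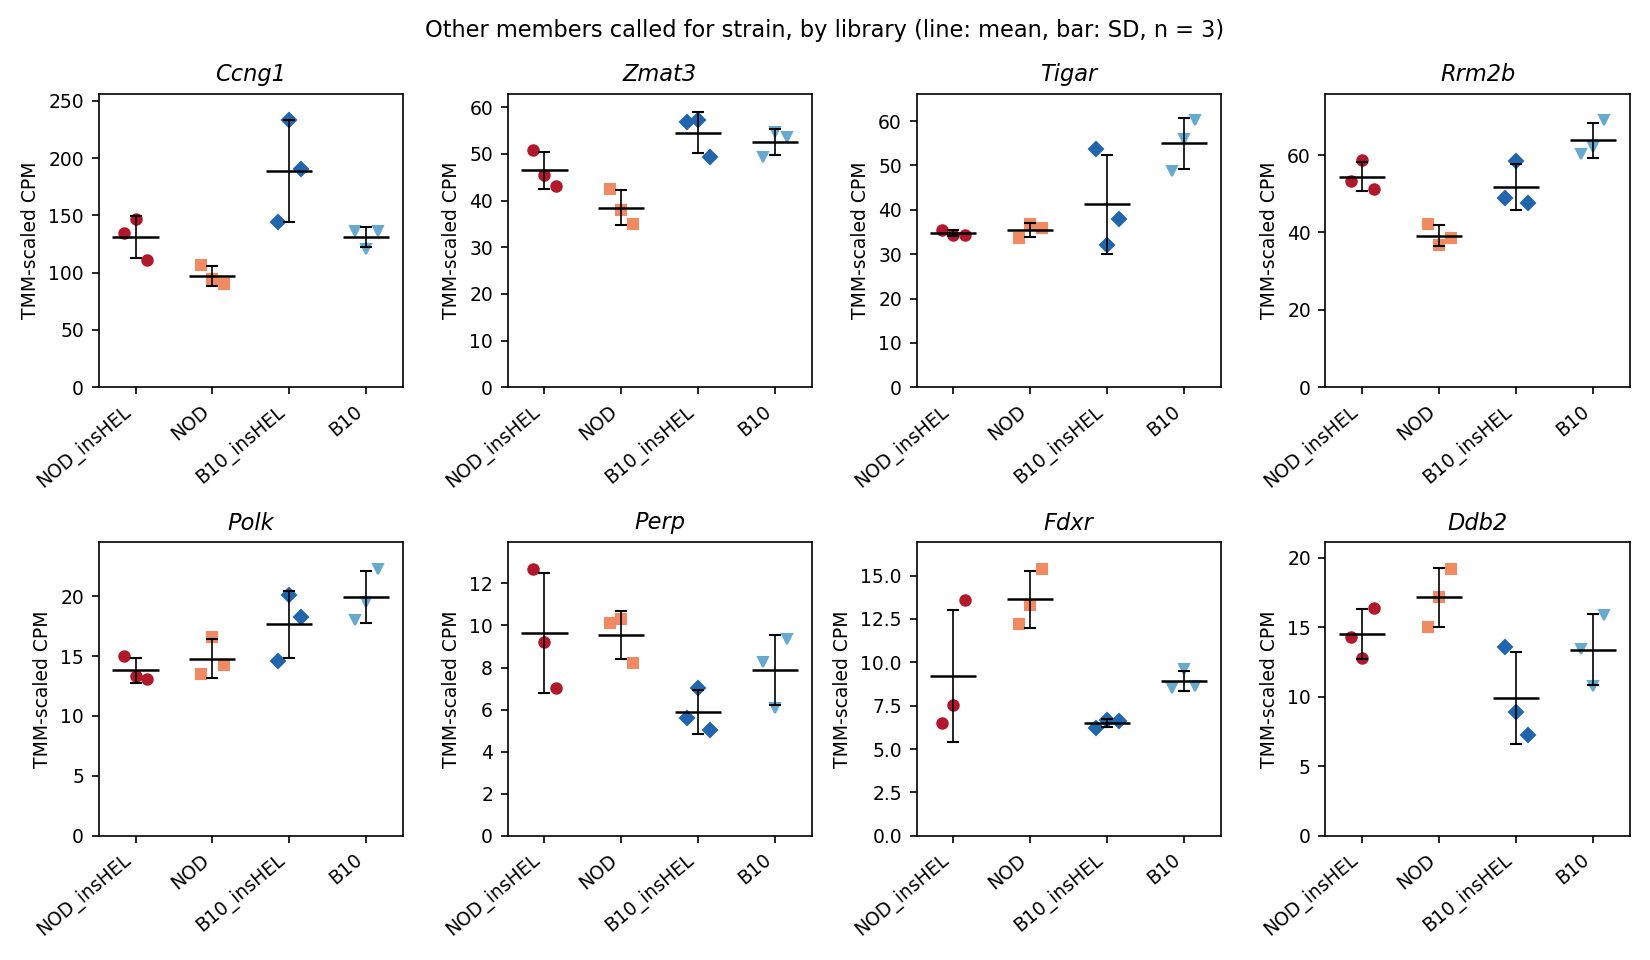
The 8 other members called in the averaged strain difference, in TMM-scaled CPM (y axis from 0) by group, with 1 point per library, the mean as a line and the SD as a bar (n = 3). Ccng1, Zmat3, Tigar, Rrm2b and Polk were lower and Perp, Fdxr and Ddb2 higher on the NOD background, and the backgrounds overlap in each panel.

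The second question was how the members respond to insHEL in each strain. In NOD islets 4 of 31 members (12.9%) were called, 3 higher and 1 lower with the transgene, against 7.06% of all genes (3.88% higher and 3.18% lower). In B10 islets 3 of 31 (9.68%) were called, 2 higher and 1 lower, against 6.85% of all genes (4.09% higher and 2.76% lower). Rps27l was called in both strains. It had 42.2, 40.4 and 40.8 CPM in NOD_insHEL against 31, 26.2 and 32 CPM in NOD, and 44.7, 40.4 and 49.0 CPM in B10_insHEL against 28.0, 25.6 and 31.2 CPM in B10. The transgenic libraries lay above the non-transgenic ones of their strain without overlap. Transgenic and non-transgenic libraries did not overlap for 7 of 31 members in NOD, beside 26.6% of all genes. In B10 this held for 10 of 31 members, beside 26.7% of all genes. The log2 change was 0.47 in NOD (SE 0.13, adjusted p = 0.0292, edgeR) and 0.66 in B10 (SE 0.12, adjusted p = 0.00243). The change in B10 kept its call without each of the 6 libraries in turn, and was 0.49 (adjusted p = 0.221) after adjustment for the acinar score; acinar markers differed between these groups as given above.

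Ccng1 and Gadd45a, whose values in the 12 libraries are given above, had positive log2 changes with insHEL in both strains, past the threshold in 1 strain each. Ccng1 rose in B10 by 0.53 on the log2 scale (SE 0.14, adjusted p = 0.0277, edgeR), and its change in NOD was 0.44 (adjusted p = 0.0705). The interaction, which is the change in NOD minus that in B10, was -0.09 for Ccng1 (95% interval -0.52 to 0.33). Gadd45a rose in NOD by 0.62 (SE 0.16, adjusted p = 0.0236, edgeR), and its change in B10 was 0.48 (adjusted p = 0.0758). Its interaction was 0.14 (-0.33 to 0.61), so that a difference between the strains in these responses was not shown.

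The other calls were seen in 1 strain. Rrm2b rose in NOD by 0.48 (SE 0.12, adjusted p = 0.0183, edgeR), with all 3 NOD_insHEL libraries above all 3 NOD libraries. In B10 its change was -0.30 (adjusted p = 0.104), with all 3 B10_insHEL libraries below all 3 B10 libraries. Gadd45g fell in NOD by 0.78 on the log2 scale (SE 0.21, adjusted p = 0.0303), and its change in B10 was 0.31 (adjusted p = 0.351). Mdm4 fell in B10 by 0.42 (SE 0.12, adjusted p = 0.0468), and its change in NOD was 0.03 (adjusted p = 0.931). The interaction for Mdm4 was 0.44 (95% interval 0.07 to 0.82) and was not called (adjusted p = 0.330, edgeR). Trp53 changed by -0.09 in NOD (95% interval -0.52 to 0.33) and -0.18 in B10 (-0.58 to 0.22), and Mdm2 by -0.02 in NOD (-0.24 to 0.20) and -0.02 in B10 (-0.23 to 0.19).

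These calls changed when single libraries were left out. Rrm2b, Gadd45a and Rps27l each missed the threshold without NOD_insHEL replicate 1 or 2 or NOD replicate 2 or 3, with log2 changes of 0.42 to 0.50, 0.57 to 0.70 and 0.39 to 0.53. Gadd45g did so without NOD_insHEL replicate 1 or 2 or NOD replicate 1 or 3 (-0.81 to -0.52). No member was called in NOD without NOD_insHEL replicate 1, NOD_insHEL replicate 2 or NOD replicate 3, and 1 was called without NOD replicate 2. In B10, Ccng1 missed the threshold without B10_insHEL replicate 2 or 3 or any B10 replicate (0.35 to 0.56), and Mdm4 without B10_insHEL replicate 1 or 3 or any B10 replicate (-0.47 to -0.37). Both also missed it with the islet number covariate and with only these groups in the fit, and Mdm4 with the acinar covariate as well. The call of Mdm4 was lost in 8 of 13 settings, with values from -0.50 to -0.25 over all of them. A single member was called in B10 without B10_insHEL replicate 3 or any B10 replicate, and 5 without B10_insHEL replicate 1.

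**Figure D5:**
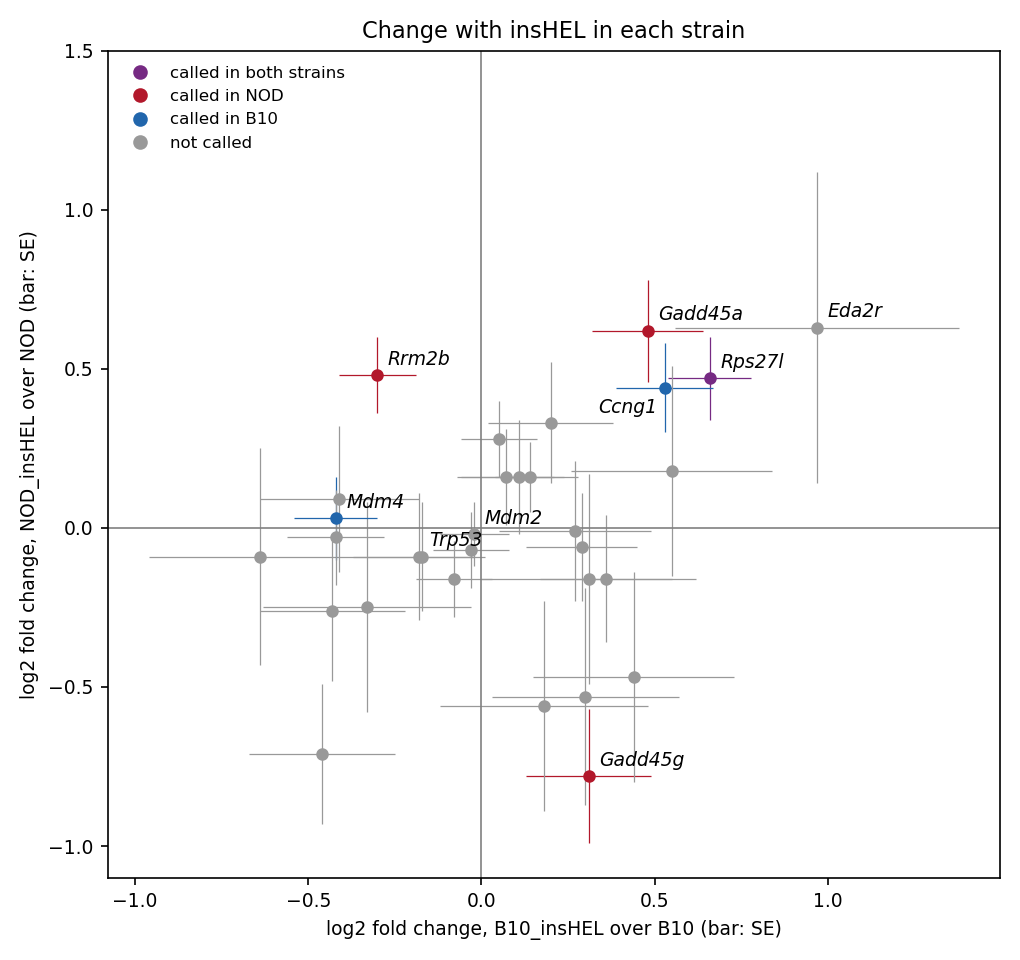
Log2 fold change with insHEL in NOD (y axis) against that in B10 (x axis) for the 31 tested members, with SE as bars. Rps27l was called in both strains, Rrm2b, Gadd45a and Gadd45g in NOD and Ccng1 and Mdm4 in B10, and Trp53 and Mdm2 lie near 0 on both axes.

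No member passed the test of the interaction in edgeR, where 0.0586% of all genes did (9 of 15352, 0.0456% higher and 0.013% lower). At an unadjusted p under 0.05 there were 4 of 31 members, beside 1873 of the 15352 genes, and DESeq2 called 1, Rrm2b. The interaction of Rrm2b was 0.78 on the log2 scale (SE 0.16, adjusted p = 0.0728, edgeR), 0.80 with DESeq2 (adjusted p = 0.00507) and 0.89 without B10_insHEL replicate 2 (adjusted p = 0.00993). Leaving out any other library gave 0.73 to 0.86 and missed the threshold (adjusted p 0.0556 to 0.251, edgeR). It was also missed with the islet number covariate (0.75, adjusted p = 0.184), the acinar covariate (0.65, 0.168), the replicate block (0.78, 0.0894) and RLE size factors (0.80, 0.0687), all in edgeR. The interaction of Gadd45g was -1.09 (SE 0.28, adjusted p = 0.163, edgeR). Without the filter on low counts both were called, Rrm2b with 0.81 (adjusted p = 0.00562) and Gadd45g with -1.07 (adjusted p = 0.00276). Gadd45g was called in no other setting.

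Other genes of the pathway were counted from 2 lists. Their calls were not examined with the covariates or with libraries left out. Of 28 regulators of p53, 25 were tested, and 2 were higher and 4 lower on the NOD background in the averaged difference, where 33.3% of all genes were called. The called regulators whose log2 difference was 1 or more in size were Hipk2, a kinase that phosphorylates p53 (-1.31, SE 0.18, adjusted p = 7.46e-05, edgeR), and Chek2, the checkpoint kinase (1.34, SE 0.30, adjusted p = 0.0019). Within transgenic islets Hipk2 had -1.05 (adjusted p = 0.0172) and Chek2 1.06 (adjusted p = 0.159). Chek2 was at low levels, averaging 1.94 CPM in NOD_insHEL and 3.22 CPM in NOD, against 0.839 CPM in B10_insHEL and 1.06 CPM in B10. Of 48 further targets, 46 were tested, and 8 were higher and 8 lower, beside the same 33.3%. The called targets of that size included Ccnd1 (-1.07), Cdkn1a (-1.14), Cpt1c (1.12) and Thbs1 (1.12). Cdkn1a, which encodes the arrest protein p21, averaged 19.5 ± 6.39 CPM in NOD_insHEL and 16.5 ± 2.13 CPM in NOD, against 46.9 ± 2.80 CPM in B10_insHEL and 35.6 ± 10.4 CPM in B10 (SD, n = 3 each; adjusted p = 8.82e-06, edgeR), the opposite direction to Gadd45a. The apoptosis genes had averaged log2 differences of 0.85 for Bbc3 (adjusted p = 0.0015), 0.30 for Bax (0.0929) and 0.24 for Pmaip1 (0.549), while within transgenic islets the values were 0.43 (0.348), 0.05 (0.913) and -0.11 (0.904), and between NOD and B10 they were 1.26 (0.000822), 0.56 (0.0297) and 0.60 (0.251). With insHEL, none of the 25 regulators was called in NOD and 1 was higher and 1 lower in B10, and of the 46 targets 1 was higher in NOD, and 2 were higher and 1 lower in B10, where 7.06% of all genes were called in NOD and 6.85% in B10.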

How the data were processed

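The authors' deposited table gives raw counts per gene for 12 libraries, 1 per mouse. The build was GRCm38 and the tools HTSeq, TopHat2 2.0.8b, DESeq and cutadapt, per the submitters' processing notes. The annotation release and strand setting are not given in the sources used here. Symbols, positions and exon lengths came from GENCODE vM21 (36639 of 38561 identifiers, 99.8% of counts).

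The tests were made with edgeR 4.0.16 in R 4.3.3: filterByExpr (15352 genes), TMM, 1 model of the 4 group means, and two-sided quasi-likelihood F-tests (robust). P-values were Benjamini-Hochberg adjusted over all genes tested, with a threshold of 0.05. The 6 contrasts were strain averaged over insHEL, strain within each transgene state, insHEL within each strain, and the interaction. Standard errors were derived from the log2 fold change and F. The scripts were tested on simulated data. Alternatives were RLE size factors, no filter, DESeq2 1.42.0, a replicate block, islet number or acinar score (mean log2 CPM of 27 markers) as a covariate, the compared groups only, and leaving out each library. Intervals cover 95%, and pooled counts cover counting error only, as reads carry no molecular identifiers.

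The 32 members and the lists were chosen with earlier results of these data known. Every member called in any comparison is named, with all 12 values where a called log2 change was at least 0.5 in size. Other pathway genes are named from a called averaged log2 difference of at least 1, and Bax, Bbc3 and Pmaip1 besides; a result that this rule would name is not reported here.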

Additional observations from a re-analysis of the deposited data

Results flagged for a closer look

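Rrm2b drew attention because its transgenic libraries lay on opposite sides of the non-transgenic ones in the 2 strains. Separation within 1 strain was common. It was seen in 7 of 31 members and 26.6% of all genes for NOD_insHEL against NOD. For B10_insHEL against B10 it was seen in 10 of 31 members and 26.7% of all genes. The log2 change was 0.48 for NOD_insHEL against NOD (adjusted p = 0.0183, edgeR), where all 3 transgenic libraries (51.2 to 58.6 CPM) lay above all 3 non-transgenic ones (36.8 to 42.1 CPM). It was -0.30 for B10_insHEL against B10, which was not called (adjusted p = 0.104), where all 3 transgenic libraries (47.7 to 58.5 CPM) lay below all 3 non-transgenic ones (60.3 to 69.0 CPM). The difference between these changes was 0.78 (95% interval 0.45 to 1.12) and missed the threshold over all genes in edgeR (adjusted p = 0.0728). Acinar markers moved with the same B10 comparison (193 to 2670 CPM in B10_insHEL against 3770 to 4750 CPM in B10), and after adjustment for the acinar score the interaction was 0.65 (adjusted p = 0.168).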

How the results depend on the processing

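The 31 calls of named members were each recomputed under 13 or 18 alternative settings, which gave 458 recomputed values in all. Of these 361 kept their side of the threshold, 97 lost it and 0 changed direction. The Gadd45a strain calls held under all settings run for them (1.02 to 1.13 for the averaged value). The number of members called in the averaged strain difference was 11, and it was 3 with the acinar covariate and 8 to 12 when 1 library was left out. For NOD_insHEL against B10_insHEL it was 5, with 3 when only these groups entered the fit and 3 to 5 with 1 library left out (3 without NOD_insHEL replicate 1). For NOD against B10 it was 8, with 4 under the islet number covariate, 2 under the acinar covariate and 4 to 7 with 1 library left out (4 without NOD replicate 3). For insHEL in NOD it was 4, with 0 to 6 when 1 library was left out. For insHEL in B10 it was 3, with 1 under the islet number covariate, 1 under the acinar covariate, 1 with only these groups in the fit, and 1 to 5 with 1 library left out. For the interaction it was 0, with 2 without the filter on low counts, 1 with DESeq2, and 0 to 1 with 1 library left out (1 without B10_insHEL replicate 2). Shares of all genes called under the alternative settings are not given here, so these shifts cannot be read as particular to the members. The cause of these shifts was not tested. The shallowest library holds 2212062 counts, which limits the precision for Fas, Tnfrsf10b, Eda2r and Gdf15.

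Same-numbered libraries of different groups did not deviate together (correlation -0.13 to 0.09 over 18 pairs, 3 of 12 libraries closest to their own number). What the numbers stand for is not stated in the labels. With 3 libraries a group, such correlations cannot show whether same-numbered mice shared a litter or day. With the replicate number as a block, 12, 4, 9, 4, 3 and 0 members were called in the 6 comparisons, in the order above. Shares of all genes with this block are not given here.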
